A study of Mus musculus with 12 samples.

Results

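The genes described here are 10 genes listed as targets of the glucocorticoid and androgen receptors: Fkbp5, Tsc22d3, Zbtb16, Sgk1, Crispld2, Ddit4, Glul, Dusp1, Errfi1 and Rgs2. Whether both receptors act directly on each of them was not tested. They were taken by name as known targets of either receptor, not by a threshold on these data. Earlier results of these data were known when the list was made. All 10 were found among the 12028 genes of the deposited tables. Messenger RNA was measured by RNA sequencing in M2-10B4 cells, an established stromal line from mouse bone marrow (background strain C57BL/6J X C3H/HeJ), in 4 groups of 3 biological replicates harvested on day 9. Control cells stayed untreated in regular medium, whose composition the labels do not give, and DHT cells received 10 nM dihydrotestosterone in that medium. ADM cells were held in adipogenic medium, phenol red-free RPMI whose serum (10%) had been charcoal-stripped and to which 1 µM of the glucocorticoid dexamethasone, 2 µM rosiglitazone (an agonist of the fat cell factor PPARγ) and insulin at 2 µg/mL were added, and ADM+DHT cells received 10 nM DHT in that same medium. In adipogenic medium the androgen was thus given beside a synthetic glucocorticoid. Insulin and rosiglitazone also set the media apart, and the regular medium is not described, so the share of dexamethasone in any difference between media cannot be told apart.

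The glucocorticoid receptor (gene Nr3c1) and the androgen receptor are steroid-activated transcription factors with closely related DNA-binding domains. Both bind as dimers to inverted repeats of the hexamer AGAACA with a gap of 3 bases between the arms, so that either hormone can switch on genes that carry such an element. Dexamethasone activates the first receptor and DHT the second, and glucocorticoids are a standard ingredient of media that turn stromal cells into fat cells.

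To show which members carry such letters near a start site, RefSeq promoter windows of GRCm38.p6, from 250 bases before to 50 after each start, were searched on both strands. The 15-base palindrome, AGAACA followed after any 3 bases by its reverse complement TGTTCT, its inner part ACANNNTGT, which every full palindrome also holds, and the single arm AGAACA were looked for. RefSeq windows matched 9 of the 10 members with 17 starts. Zbtb16 had no entry. The full palindrome was in 1 of the 17 windows, which belongs to Sgk1, and in 3 of 32851 windows of all genes (0.00913%). The inner part was in 3 member windows against 6.85% of all windows, and the single arm in 4 against 19.0%. Sgk1 alone has 6 of the 17 windows, and its window with the full palindrome counts for each motif. By gene, the inner part was in Sgk1 and Glul and in 2135 of all 27025 genes. The arm was in Sgk1 and Tsc22d3 and in 5750 of all genes. Any of the letters stood in 6 windows of 3 members, Sgk1, Glul and Tsc22d3, for which no share over all windows was taken. A window of each is shown with the match in capitals. The match is the full palindrome for Sgk1, the inner part for Glul and the arm (in its reverse complement) for Tsc22d3. The sequences run in the direction of transcription, and a further arm of the Sgk1 window is left in lower case. The Sgk1 window lies at chr10:21993640-21993939 on the plus strand, the Glul window at chr1:153899679-153899978 on the plus strand and the Tsc22d3 window at chrX:140600473-140600772 on the minus strand.
Sgk1: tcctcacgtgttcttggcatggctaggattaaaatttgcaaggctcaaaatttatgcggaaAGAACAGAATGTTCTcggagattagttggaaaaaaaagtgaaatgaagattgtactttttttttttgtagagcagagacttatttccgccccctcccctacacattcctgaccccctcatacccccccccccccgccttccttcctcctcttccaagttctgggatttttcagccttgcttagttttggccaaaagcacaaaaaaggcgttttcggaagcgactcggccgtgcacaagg
Glul: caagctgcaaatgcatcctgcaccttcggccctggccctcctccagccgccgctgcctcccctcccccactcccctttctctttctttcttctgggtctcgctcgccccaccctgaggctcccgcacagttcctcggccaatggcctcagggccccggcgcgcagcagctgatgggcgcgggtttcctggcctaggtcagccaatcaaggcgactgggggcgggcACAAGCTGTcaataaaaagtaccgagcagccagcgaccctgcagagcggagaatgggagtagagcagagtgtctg
Tsc22d3: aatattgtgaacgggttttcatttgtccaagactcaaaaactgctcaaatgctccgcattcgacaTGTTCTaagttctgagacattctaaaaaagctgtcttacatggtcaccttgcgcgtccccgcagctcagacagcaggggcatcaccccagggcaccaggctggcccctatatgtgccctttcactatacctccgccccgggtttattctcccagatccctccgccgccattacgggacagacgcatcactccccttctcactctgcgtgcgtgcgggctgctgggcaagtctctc
The Sgk1 palindrome occupies bases 21993701 to 21993715, so its first base is 189 bases before the start site of its window and 965 bases before the most downstream of the 6 RefSeq starts of the gene. The Glul match begins 25 bases before its start and the Tsc22d3 match 185 bases before. A match describes the letters only, and the FPKM values are sums over a gene that cannot be assigned to a start.

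The tables give FPKM (fragments scaled to transcript length and to the mapped fragments of the library) and no counts, which leaves the depth of the libraries unknown. The sum of FPKM in a library lay between 240651 and 262947. Markers of fat cells moved with the groups: all 9 listed were in the tables and their summed level lay between 25.3 and 38.8 FPKM in control, 25.0 and 26.3 in DHT, 2062 and 2169 in ADM, and 686 and 759 in ADM+DHT. Of 9 listed stromal markers 8 were in the tables, with summed levels of 2274 to 2315 FPKM in control, 2344 to 2437 in DHT, 1417 to 1479 in ADM and 1922 to 1944 in ADM+DHT. Of these 8, 4 rose and 4 fell in ADM against control, with a median log2 difference of 0.18. Over all genes tested there, 28.3% rose and 33.3% fell. Few of the macrophage (3 of 8), endothelial (1 of 6) and muscle (2 of 6) markers were in the tables, with summed levels of at most 11.8, 1.26 and 2.33 FPKM in any library. Ptprc, Adgre1, Pecam1 and Myod1 were looked for and not found. Mitochondrially encoded transcripts made up 9.34% to 10.5% of FPKM in regular medium, 16.3% to 17.2% in ADM and 13.3% to 13.9% in ADM+DHT. In such bulk samples fewer cells of a type and less RNA per cell cannot be told apart, and the part of these shifts in the results below was not tested.

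Transcripts of the glucocorticoid receptor were present in every library. Nr3c1 stood at 24.3, 24.2 and 23.0 FPKM in control, 19.2, 18.6 and 17.4 in DHT, 15.3, 15.7 and 15.7 in ADM, and 13.2, 12.5 and 12.5 in ADM+DHT. On the log2 scale of FPKM + 1 it fell by 0.36 with DHT (± 0.051, limma, adjusted p = 0.00241), by 0.58 in ADM (± 0.046, adjusted p = 2.36e-05) and by a further 0.27 when DHT was added to adipogenic medium (± 0.046, adjusted p = 0.00369). The error beside a log2 difference is the SE that limma gives, the error beside a group mean is the SD over 3 libraries, and an adjusted p below 0.05 over all genes tested is what "rose", "fell" and "passed" mean here.

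**Figure D1:**
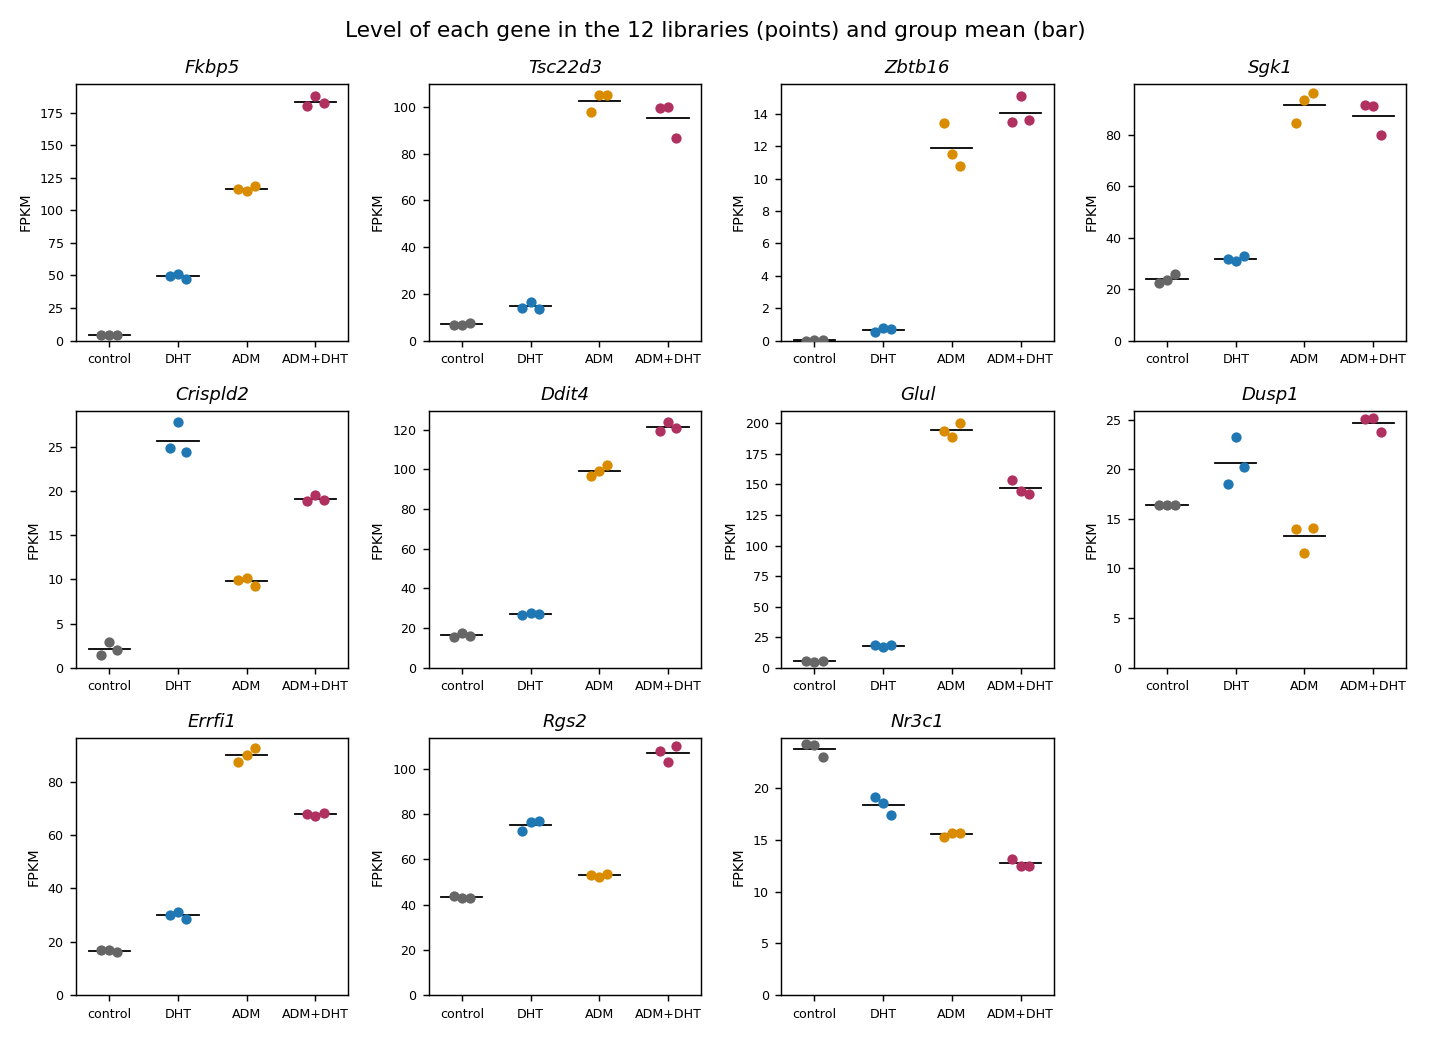
Level of each of the 10 genes and of Nr3c1 in every library (vertical axis, FPKM on a linear scale from 0, set for each gene; points are libraries and bars are group means), by group. Fkbp5 climbs from 4.33 FPKM in control to 183 in ADM+DHT, Crispld2 is highest in DHT, and Dusp1 is lowest in ADM.

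Fkbp5 (ENSMUSG00000024222.16, chromosome 17, 28399095 to 28517524, minus strand, GRCm38) encodes a co-chaperone of Hsp90 that lowers the hormone affinity of the glucocorticoid receptor and so closes a feedback loop. It read 4.46, 3.92 and 4.61 FPKM in control, 49.9, 50.8 and 47.0 in DHT, 116, 115 and 119 in ADM, and 180.1, 188 and 182 in ADM+DHT. The 4 groups did not overlap and stood in that order, with means of 4.33 ± 0.365, 49.2 ± 1.99, 117 ± 1.91 and 183 ± 3.80 FPKM. DHT alone raised the level 11.4-fold, a log2 difference of 3.24 ± 0.065 (adjusted p = 5.74e-07), and ADM alone raised it 27.0-fold, a log2 difference of 4.47 ± 0.059 (adjusted p = 7.97e-09). Added to adipogenic medium, DHT raised Fkbp5 another 1.57-fold, by 0.645 ± 0.031 (adjusted p = 9.06e-06). Among the 11582 genes with values in every library, it moved from the 37.4th percentile of level in control to the 98.7th in ADM+DHT. The annotated span of the gene differs between the deposited tables and GENCODE M21 and overlaps 4 other annotated genes, 2 of them on the opposite strand.

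Tsc22d3 (ENSMUSG00000031431.13, chromosome X, 140539528 to 140600659, minus strand) encodes the glucocorticoid-induced leucine zipper protein GILZ, which restrains inflammatory transcription factors and, in mesenchymal cells, fat cell formation. Control libraries read 6.73, 6.66 and 7.40 FPKM, DHT libraries 14.0, 16.5 and 13.5, ADM libraries 97.7, 105 and 105, and ADM+DHT libraries 99.3, 99.8 and 86.6. Control and DHT stood apart from each other and from both adipogenic groups, which overlapped. The gene rose 2.11-fold with DHT (log2 difference 0.975 ± 0.084, adjusted p = 0.000215) and 14.8-fold in ADM (3.71 ± 0.056, adjusted p = 9.44e-09). The addition of DHT to adipogenic medium gave -0.11 ± 0.063, with a 95% interval of -0.258 to 0.039, and did not pass the test (adjusted p = 0.227). Without ADM+DHT replicate 3, the lowest of its group, that difference was -0.04.

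Zbtb16 (ENSMUSG00000066687.5, chromosome 9, 48654297 to 48836222, minus strand) encodes PLZF, a zinc finger repressor known from stem cell maintenance and from the glucocorticoid response of many tissues. In control it was listed at 0, 0.0285 and 0.0300 FPKM, and in DHT at 0.533, 0.753 and 0.734. In ADM it read 13.4, 11.5 and 10.8 FPKM and in ADM+DHT 13.5, 15.1 and 13.6, so both adipogenic groups were far above both regular ones. Since no group in regular medium reached a mean of 1 FPKM, DHT against control was not tested with the filter used. Without that filter its adjusted p was 0.000679. Zbtb16 entered the other comparisons only through the groups where it was high, and no fold is given against a group with a library at 0. The log2 difference of FPKM + 1 between ADM and control was 3.66 ± 0.091 (adjusted p = 8.95e-08), and it became 6.65 with a pseudocount of 0.1. DHT in adipogenic medium gave 0.23 ± 0.086 (95% interval 0.022 to 0.430), which did not pass (adjusted p = 0.0861) but did without ADM replicate 1 (adjusted p = 0.0222).

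Several members code for brakes and relays of cell signalling. Sgk1 (ENSMUSG00000019970.15, chromosome 10, 21882184 to 21999903, plus strand), the serum- and glucocorticoid-regulated kinase whose promoter window holds the full palindrome, read 22.5, 23.6 and 26.0 FPKM in control, 31.7, 31.0 and 32.9 in DHT, 84.8, 93.7 and 96.3 in ADM, and 91.5, 91.1 and 80.1 in ADM+DHT. Its DHT libraries were all above control and far below both adipogenic groups, which overlapped. It rose 1.33-fold with DHT (0.39 ± 0.060, adjusted p = 0.00316) and 3.81-fold in ADM (1.89 ± 0.070, adjusted p = 5.08e-07). In adipogenic medium DHT gave -0.06 ± 0.068, with an interval of -0.226 to 0.097 (adjusted p = 0.512). With a library left out, that difference ranged from -0.12 without ADM replicate 1 to -0.003 without ADM+DHT replicate 3.

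Ddit4 (ENSMUSG00000020108.4, chromosome 10, 59949669 to 59951834, minus strand) encodes REDD1, a stress-induced inhibitor of the growth kinase complex mTORC1. It read 15.4, 17.5 and 16.2 FPKM in control, 26.6, 27.4 and 27.3 in DHT, 96.6, 99.2 and 102 in ADM, and 119.5, 124 and 121 in ADM+DHT. The groups were ordered as for Fkbp5, without overlap. The gene rose 1.66-fold with DHT (0.70 ± 0.055, adjusted p = 0.000154), 6.07-fold in ADM (2.53 ± 0.055, adjusted p = 4.49e-08) and 1.22-fold when DHT joined adipogenic medium (0.29 ± 0.034, adjusted p = 0.000645).

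Errfi1 (ENSMUSG00000028967.10, chromosome 4, 150853919 to 150868892, plus strand), also called Mig6, encodes an inhibitor of the epidermal growth factor receptor. Control libraries read 16.8, 16.7 and 16.0 FPKM, DHT libraries 30.0, 31.2 and 28.5, ADM libraries 87.5, 89.9 and 92.5, and ADM+DHT libraries 67.9, 67.1 and 68.2. Here the combined treatment stood between DHT and ADM, with no overlap of any groups. Errfi1 rose 1.81-fold with DHT in regular medium (0.82 ± 0.050, adjusted p = 4.35e-05) and 5.45-fold in ADM (2.38 ± 0.042, adjusted p = 1.87e-08), and DHT then lowered it by 0.40 in adipogenic medium (± 0.034, adjusted p = 0.000130). An antisense gene, 1700045H11Rik, lies within its span. The library kit marks strand, but whether the counting used strand is not given in the sources used here.

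Rgs2 (ENSMUSG00000026360.9, chromosome 1, 143999338 to 144004161, minus strand) encodes a protein that shuts off G protein signals. It read 43.7, 43.0 and 42.8 FPKM in control, 72.6, 76.4 and 77.1 in DHT, 53.2, 52.0 and 53.5 in ADM, and 108, 103 and 110.4 in ADM+DHT. Both groups with DHT were above both groups without it. The gene rose 1.75-fold with DHT in regular medium (0.79 ± 0.038, adjusted p = 1.50e-05) and 2.03-fold in adipogenic medium (1.01 ± 0.038, adjusted p = 3.61e-06), against 1.23-fold with ADM alone (0.29 ± 0.036, adjusted p = 0.000299).

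Dusp1 (ENSMUSG00000024190.6, chromosome 17, 26505590 to 26508519, minus strand) encodes a phosphatase that inactivates MAP kinases and is a classical anti-inflammatory target of glucocorticoids. All 3 control libraries read 16.4 FPKM, DHT libraries 18.5, 23.2 and 20.2, ADM libraries 14.0, 11.6 and 14.1, and ADM+DHT libraries 25.1, 25.2 and 23.7. Dusp1 was the only member with a lower level in ADM than in control, at 0.805 times the control level (-0.30 ± 0.077, adjusted p = 0.0118). DHT raised it 1.87-fold in adipogenic medium (0.86 ± 0.078, adjusted p = 0.000189). In regular medium the rise was 1.26-fold (0.31 ± 0.078, adjusted p = 0.0257), a call that ended without any of the 3 control libraries or without DHT replicate 3 (adjusted p from 0.0584 to 0.0707).

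Glul (ENSMUSG00000026473.15, chromosome 1, 153899944 to 153909723, plus strand) encodes glutamine synthetase, which joins ammonia to glutamate and is a long-known glucocorticoid-induced enzyme of muscle and fat. It read 5.09, 4.88 and 5.37 FPKM in control, 18.2, 17.1 and 18.9 in DHT, 194, 189 and 200.5 in ADM, and 154, 145 and 142 in ADM+DHT. With Zbtb16 left aside, it showed the widest gap of the members between ADM and control, 38.0-fold or 4.998 ± 0.048 on the log2 scale (adjusted p = 1.58e-09). DHT raised it 3.53-fold in regular medium (1.64 ± 0.060, adjusted p = 6.36e-06) and lowered it by 0.40 in adipogenic medium (± 0.040, adjusted p = 0.000309). Teddm2 and Mir8114 overlap its span, the first on the opposite strand.

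Crispld2 (ENSMUSG00000031825.16, chromosome 8, 119992438 to 120052793, plus strand) encodes a secreted protein with CAP and LCCL domains that binds bacterial lipopolysaccharide. Its libraries read 1.42, 2.94 and 1.98 FPKM in control, 24.9, 27.8 and 24.4 in DHT, 9.97, 10.2 and 9.25 in ADM, and 18.9, 19.6 and 19.0 in ADM+DHT. DHT alone gave the highest level of the 4 groups, with no overlap. The gene rose 12.2-fold with DHT (3.13 ± 0.166, adjusted p = 2.33e-05), 4.64-fold in ADM (1.82 ± 0.165, adjusted p = 5.09e-05) and 1.95-fold when DHT was added to adipogenic medium (0.90 ± 0.051, adjusted p = 2.12e-05). Gm20388, on the same strand, and the antisense gene Gm15684 overlap it, so its reads could be split between annotations.

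Over the members as a set, DHT in regular medium raised the 9 that could be tested, with log2 differences from 0.31 for Dusp1 to 3.24 for Fkbp5 and a median of 0.82. Of the 10820 genes tested in that comparison, 12.7% rose, 14.1% fell and the median was -0.006. In ADM, 9 of the 10 rose and Dusp1 fell, with a median of 2.45, where 28.3% of 11074 genes rose, 33.3% fell and the median was -0.026. Without Zbtb16, which passed the filter only through its high groups, 8 rose. The members were chosen as known targets with earlier results of these data in view, so these counts describe the list and carry no test.

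Set directly against each other, ADM was above DHT for 7 members (6 without Zbtb16) and below it for Crispld2, Rgs2 and Dusp1, where 24.2% of 10981 genes were higher in ADM and 32.6% lower. Crispld2 was 2.62-fold higher in DHT (log2 difference ADM minus DHT -1.31 ± 0.065, adjusted p = 2.78e-06), Rgs2 1.42-fold (-0.50 ± 0.038, adjusted p = 2.32e-05) and Dusp1 1.56-fold (-0.61 ± 0.102, adjusted p = 0.00161). With Zbtb16 again left aside, the other end held Glul, which was 10.8-fold higher in ADM (3.36 ± 0.047, adjusted p = 7.33e-09) and Tsc22d3 7.02-fold (2.74 ± 0.076, adjusted p = 1.83e-07). Fkbp5 lay between these, at 2.37-fold (1.23 ± 0.040, adjusted p = 4.02e-07).

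**Figure D2:**
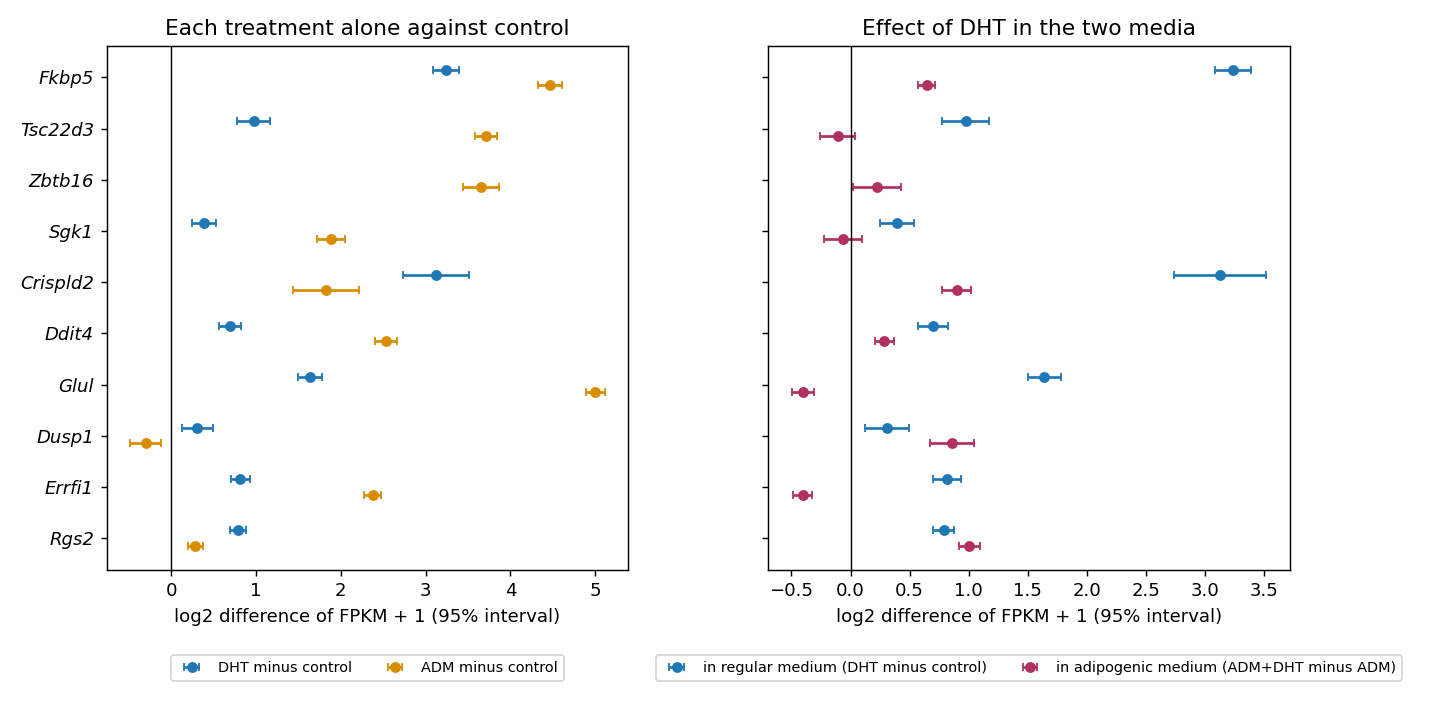
Log2 differences of FPKM + 1 for the 10 genes (horizontal axis; points are estimates, bars 95% intervals, 3 libraries a group). On the left are DHT and ADM each against control, and on the right DHT in regular and in adipogenic medium, where the estimates for Glul and Errfi1 lie above 0 in regular medium and at -0.40 in adipogenic medium; Zbtb16 has no point for DHT against control.

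When DHT was added to adipogenic medium, the members split. Fkbp5, Crispld2, Ddit4, Dusp1 and Rgs2 rose, Glul and Errfi1 fell, and Tsc22d3, Zbtb16 and Sgk1 did not pass the test. Of 10823 genes tested there, 17.2% rose and 16.3% fell, with a median of 0.006 beside 0.26 for the members. The fat cell markers fell in the same comparison, all 9 of them, with a median log2 difference of -1.75, and the share of mitochondrial transcripts was lower. Their part in the falls of Glul and Errfi1 was not tested.

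The difference of the DHT effect between media was tested as an interaction over all 12 libraries, and the 9 members other than Zbtb16 passed, as did Zbtb16, which entered the test only through its high groups, where 25.4% of 11152 genes passed, 12.5% with a positive and 12.9% with a negative interaction. On the log2 scale the DHT effect was smaller or turned in adipogenic medium for 8 members, Zbtb16 among them, with interactions of -2.59 ± 0.070 for Fkbp5, -2.23 ± 0.190 for Crispld2, -2.04 ± 0.067 for Glul and -1.22 ± 0.056 for Errfi1 (adjusted p from 1.01e-09 to 6.27e-06). Tsc22d3 followed with -1.08 ± 0.109, Zbtb16 with -0.49 ± 0.122, Sgk1 with -0.46 ± 0.096 and Ddit4 with -0.41 ± 0.062 (adjusted p from 2.24e-05 to 0.0122). The value of Zbtb16 was -2.45 with a pseudocount of 0.1. Dusp1 and Rgs2 had the opposite sign, 0.55 ± 0.117 (adjusted p = 0.00483) and 0.22 ± 0.050 (adjusted p = 0.00817), so DHT raised them by a larger fold in adipogenic medium.

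Because ADM had already raised most members, the same differences were also taken on the linear FPKM scale, a choice made after seeing the data. DHT added 44.9 ± 1.17 FPKM (SE) to Fkbp5 in regular medium and 66.5 ± 2.46 in adipogenic medium, an interaction of 21.5 with the opposite sign to the log2 one (adjusted p = 9.13e-05). Ddit4 likewise gained 10.8 ± 0.670 FPKM in regular and 22.1 ± 1.99 in adipogenic medium (interaction 11.3, adjusted p = 0.00148). For these genes the direction of the interaction thus depended on the scale. The interaction of Zbtb16 was 1.50 FPKM and that of Sgk1 -11.8 FPKM, and neither passed on this scale (adjusted p = 0.263 and 0.0836).

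The remaining members kept the sign of their interaction in FPKM. Rgs2 gained 32.2 ± 1.42 FPKM with DHT in regular medium and 54.4 ± 2.31 in adipogenic medium. Crispld2 gained 23.6 ± 1.15 and 9.32 ± 0.356, while Glul gained 13.0 ± 0.530 and then lost ground, at -47.3 ± 4.86. The level in ADM+DHT can also be set beside control plus the 2 single effects added up in FPKM: 183 against 162 for Fkbp5, 121 against 110.1 for Ddit4, 107 against 85.1 for Rgs2, 24.7 against 17.4 for Dusp1 and 14.0 against 12.6 for Zbtb16. It was below the sum for Glul (147 against 207), Errfi1 (67.7 against 103), Crispld2 (19.1 against 33.4), Tsc22d3 (95.3 against 110.4) and Sgk1 (87.6 against 99.4).

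**Figure D3:**
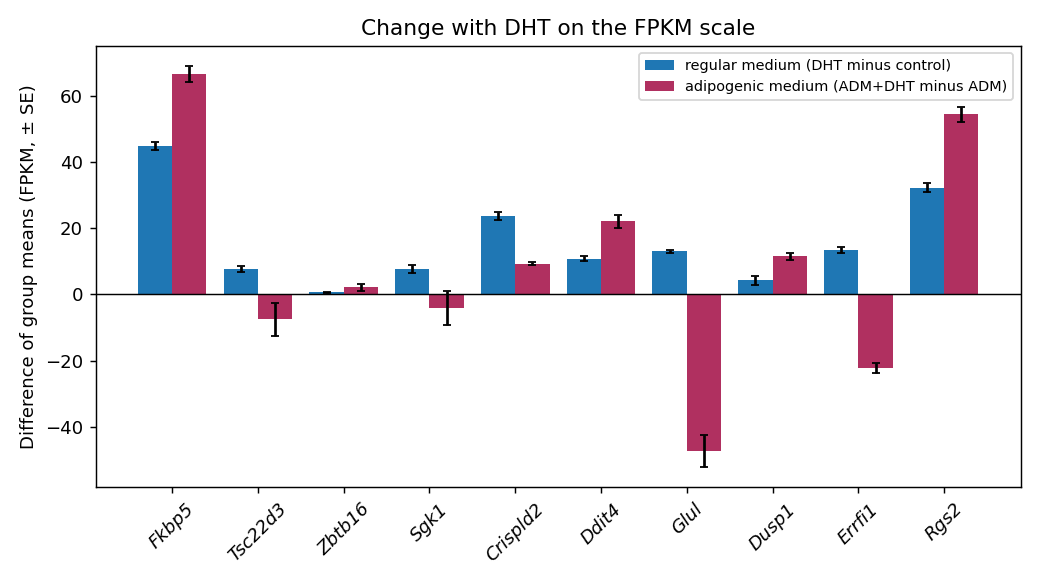
Change in FPKM with DHT for the 10 genes in regular medium (DHT minus control) and in adipogenic medium (ADM+DHT minus ADM); bars are 1 SE, 3 libraries a group. Fkbp5, Ddit4, Dusp1 and Rgs2 gained more FPKM in adipogenic medium, and Glul and Errfi1 lost FPKM there.

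The adipogenic medium was also compared in the presence of DHT. ADM+DHT was above DHT for 9 members (8 without Zbtb16) and below it for Crispld2, where 23.3% of 10942 genes were higher and 26.7% lower. Crispld2 stood at 0.743 times its DHT level (-0.41 ± 0.056, adjusted p = 0.000843). Dusp1 was 1.20-fold higher (0.25 ± 0.079, adjusted p = 0.0341), a call that ended without DHT replicate 1 or 3 or without any ADM+DHT library (adjusted p from 0.0525 to 0.0926). Against control, ADM+DHT was higher for all 10 members (9 without Zbtb16), from 1.50-fold for Dusp1 to 42.3-fold for Fkbp5 with Zbtb16 left aside, where 29.0% of 10987 genes were higher and 31.0% lower.

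Other genes known to be induced by glucocorticoids were followed as a list of 29, of which 27 were in the tables and 24 were tested. All 24 rose in ADM, with a median log2 difference of 1.60, where 28.3% of all genes tested rose. Hif3a and Lcn2, at means of 0.0603 and 0.163 FPKM in control, entered this count only through ADM. Klf15 (0.293 FPKM in control and 0.808 in ADM) and Trim63 (0.304 and 0.230) stayed under the filter and were not tested. DHT in regular medium raised 16 of the 24 and lowered 3, with a median of 0.48, where 12.7% of all genes rose and 14.1% fell. In adipogenic medium DHT raised 5, lowered 7 and left 12 that did not pass, with a median of -0.06, where 17.2% of all genes rose and 16.3% fell. Fam107a, an actin-associated stress gene, read 3.17, 3.19 and 4.06 FPKM in control, 19.3, 20.0 and 18.4 in DHT, 137, 141 and 141 in ADM, and 103, 101 and 92.8 in ADM+DHT. Its DHT effect was 2.18 ± 0.087 in regular medium (adjusted p = 8.20e-06) and -0.49 ± 0.044 in adipogenic medium (adjusted p = 0.000174). The hypoxia factor gene Hif3a had the same signs, 1.99 ± 0.073 and -0.26 ± 0.065, as did Pdk4, an inhibitor of glucose oxidation, at 0.38 ± 0.062 and -0.81 ± 0.052, and the stress gene Sesn1 at 0.63 ± 0.059 and -0.57 ± 0.038. Lcn2, an iron-siderophore carrier, rose with DHT in both media, by 1.99 ± 0.097 and 0.41 ± 0.065. Hif3a and Lcn2 entered DHT against control only through the group where they were high, with DHT means of 3.21 and 3.65 FPKM. Irs2, an adaptor of the insulin receptor, differed by 0.03 ± 0.083 with DHT in regular medium (adjusted p = 0.818) and fell by 1.03 in adipogenic medium (± 0.062, adjusted p = 2.66e-05). The metallothionein gene Mt2 rose by 1.34 ± 0.048 with DHT in regular medium. In adipogenic medium its difference with DHT was 0.19 ± 0.063, which did not pass (limma, adjusted p = 0.0557).

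Genes known to be induced by androgens in other tissues, largely the prostate, did not move as one. Of 36 listed, 29 were in the tables and tested, and DHT raised 11 and lowered 8 in regular medium (median 0.15) and raised 12 and lowered 8 in adipogenic medium (median 0.03). Over all genes tested, 12.7% rose and 14.1% fell in the first comparison and 17.2% rose and 16.3% fell in the second. Ndrg1, a stress-responsive differentiation gene, rose in both, by 0.95 ± 0.038 and 1.32 ± 0.038, as did Mertk, a receptor for dying cells, by 1.26 ± 0.071 and 0.42 ± 0.047, and the galactosyltransferase gene B4galt1 by 0.70 ± 0.043 and 0.50 ± 0.040. The metalloreductase gene Steap4 fell in both, by 0.71 in regular (± 0.104) and by 1.32 in adipogenic medium (± 0.040), and Insig1, a brake on sterol synthesis, by 0.59 and 0.77.

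**Figure D4:**
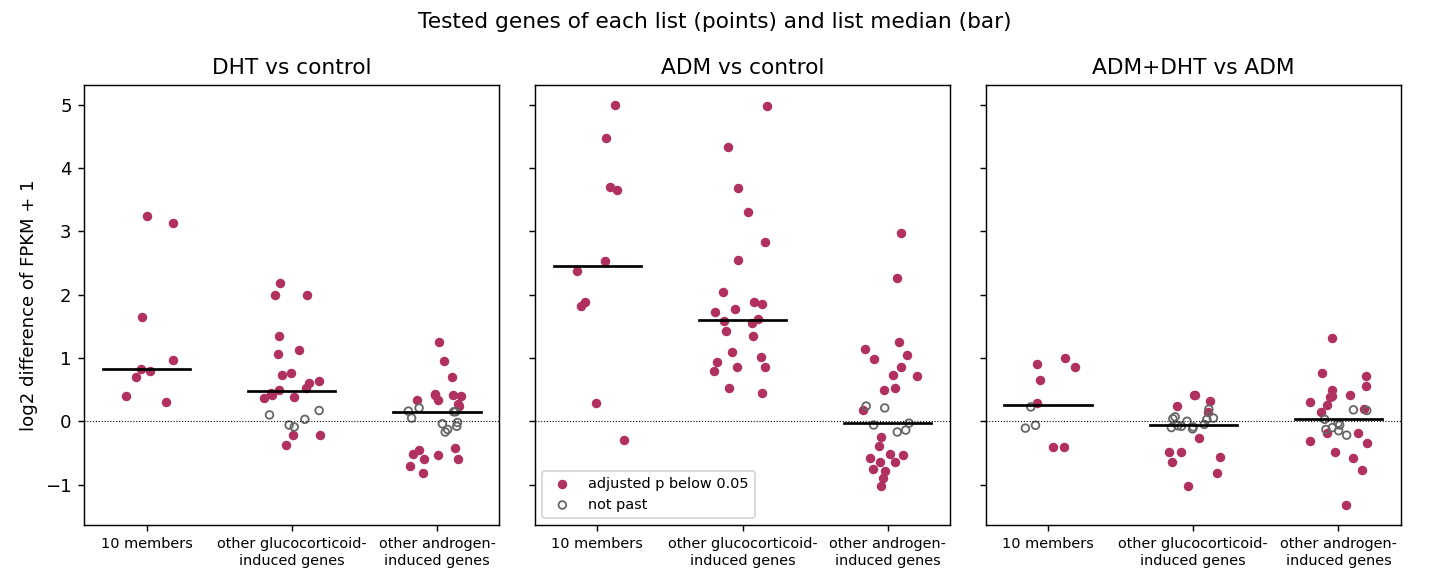
Log2 differences of FPKM + 1 for the tested genes of each list (vertical axis; points are genes, filled where the adjusted p was below 0.05 and open otherwise, and bars are list medians) in DHT against control, ADM against control and ADM+DHT against ADM. The other glucocorticoid-induced genes have medians of 0.48, 1.60 and -0.06.

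Enzymes that convert the ligands and proteins that work with the receptors were followed as a list of 19, of which 15 were in the tables. Akr1c14, a hydroxysteroid dehydrogenase of the family that breaks down DHT, fell with DHT by 1.18 in regular medium (± 0.109, adjusted p = 0.000298) and by 1.03 in adipogenic medium (± 0.069, adjusted p = 4.35e-05). Hsd11b1, which regenerates active glucocorticoid, rose by 1.26 ± 0.097 in ADM and fell with DHT by 0.49 in regular (± 0.091) and 0.96 in adipogenic medium (± 0.096). Its levels were low, 1.31 to 1.62 FPKM in control and 4.67 to 5.72 in ADM. In DHT the mean was 0.783 FPKM, so Hsd11b1 entered DHT against control only through control. Nrip1, a corepressor of nuclear receptors, rose by 1.20 ± 0.070 in ADM and by 0.41 ± 0.074 with DHT in regular medium, and fell by 0.17 with DHT in adipogenic medium (± 0.054, adjusted p = 0.0476). Ptges3, a co-chaperone of steroid receptors, fell by 0.20 with DHT (± 0.038) and by 0.54 in ADM (± 0.035). In all, DHT raised 3 and lowered 5 of the 15 in regular medium and raised 2 and lowered 8 of the 14 tested in adipogenic medium, beside 12.7% of all genes higher and 14.1% lower in the first case and 17.2% and 16.3% in the second.

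Genes of like pattern were sought among 6884 genes with a mean of at least 5 FPKM, by the root mean square difference over the 12 libraries between log2 profiles centred on their own means. For Fkbp5 the nearest was Dpep1, a membrane dipeptidase gene, at 0.201 log2 units. Dpep1 read 1.00, 1.01 and 1.02 FPKM in control, 14.5, 16.8 and 14.6 in DHT, 35.0, 34.4 and 37.2 in ADM, and 78.5, 79.6 and 79.3 in ADM+DHT. Ctla2a (0.311) and Gabrr2 (0.402) came next, both lowest in control and highest in ADM+DHT. Postn, which encodes the matrix protein periostin, was nearest to Crispld2 at 0.198, with 51.4, 53.1 and 51.6 FPKM in control, 362, 373 and 364 in DHT, 161, 158 and 153 in ADM, and 347, 332 and 337 in ADM+DHT. Rhou was nearest to both Tsc22d3 (0.210) and Zbtb16 (0.254), Vit to Errfi1 (0.082) and Osr1 to Rgs2 (0.072). Zfp36 lay 0.076 from Sgk1, Tcn2 0.166 from Ddit4 and Cpt1c 0.117 from Dusp1. Likeness of this kind is a description over 12 libraries in 4 groups.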

How the data were processed

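Poly(A)-selected RNA from 12 cultures was made into stranded libraries and sequenced in paired ends, per the labels' protocols. Tools named in the submitters' processing notes are HISAT2, StringTie, cutadapt and FastQC, with the build GRCm38. Per the file headers, FPKM per library came in 4 deposited tables that each set a group against another. The authors' log2 group values and log2 fold change, their fold change as a ratio, and their p-value and q-value, from a test not given in the sources used here, were not printed. Values of a library were equal in every table (largest difference 0). The tables were joined by gene identifier, and 1 line of each had been emptied before receipt. Counts could not be recovered from the low FPKM values, so depth is unknown and precision rests on 3 replicates.

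From the deposited FPKM, log2(FPKM + 1) was fitted in limma (version 3.58.1, R 4.3.3) with an intensity trend, for genes whose mean reached 1 FPKM in either group compared. Fold values are ratios of mean FPKM, whereas log2 differences carry the pseudocount of 1 and understate the change of low genes. Each pair was fitted on its 6 libraries and the interaction, which is the DHT effect in adipogenic medium less the DHT effect in regular medium, on all 12. Pairs that share a group are not independent of each other. P-values are two-sided and carry the Benjamini-Hochberg adjustment over every gene tested. They set a difference against the spread between replicate cultures of this cell line, which limma moderates over all genes. As a check of the code, the fits were run on simulated data with far fewer changed genes than were called here. That run gives no error rate for these data. Intervals cover 95%.

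Members and lists were chosen with earlier results of these data known. Named beside the members were Nr3c1, up to 3 genes per list with the smallest adjusted p in DHT vs control, ADM vs control and ADM+DHT vs ADM, and the genes of nearest pattern (3 for Fkbp5), of which a few are left out here. Promoters are those of RefSeq, GRCm38.p6. Alternatives covered pseudocount, filter, scaling, variance model, libraries in the fit, the replicate block and each left-out library. Plots were made in matplotlib 3.10.9 (Python 3.11.15).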

Additional observations from a re-analysis of the deposited data

Results flagged for a closer look

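The effect of DHT differed between the media for the 9 genes other than Zbtb16. The interaction was tested with limma over all 12 libraries on log2(FPKM + 1), where 25.4% of 11152 genes passed. The DHT effect in adipogenic medium minus that in regular medium was -2.59 for Fkbp5, -2.23 for Crispld2, -2.04 for Glul, -1.22 for Errfi1, -1.08 for Tsc22d3, -0.49 for Zbtb16, -0.46 for Sgk1 and -0.41 for Ddit4. Zbtb16 passed as well, but it entered the test only through the adipogenic groups, where it is high. Dusp1 (0.55) and Rgs2 (0.22) had positive values. For Fkbp5, Ddit4 and Zbtb16 the sign was the opposite on the linear FPKM scale. Zbtb16 and Sgk1 did not pass on that scale (limma, adjusted p = 0.263 and 0.0836).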

How the results depend on the processing

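Over the planned settings of pseudocount, filter, scaling and variance model, the number of members called did not move beyond 9 to 10 for DHT against control stayed at 7 for ADM+DHT against ADM and at 10 in the other pairs. The member added without the filter on low values, and after rescaling without mitochondrial genes, was Zbtb16. With 1 library left out at a time, members called ranged from 8 to 9 for DHT against control, 7 to 8 for ADM+DHT against ADM and 9 to 10 for ADM+DHT against DHT, and genes called from 2095 to 2668, 2915 to 3137 and 4760 to 4932. With a library left out, calls of members changed for Dusp1 and Zbtb16, as given above, and for no other member. On the linear FPKM scale, chosen after seeing the data, the interaction reversed for Fkbp5 (21.5 FPKM), Ddit4 (11.3) and Zbtb16 (1.50), and 8 members and 3085 genes were called. The log2 values of Zbtb16 grew with a smaller pseudocount, to 6.65 for ADM against control and 6.90 for ADM+DHT against control. Replicate numbers did not pair the samples: deviations of same-numbered libraries correlated between -0.13 and 0.14, those of other numbers between -0.12 and 0.20, and 0 libraries correlated best with their own number. With the replicate block, 2542 genes and 9 members were called for DHT against control, and no call of a member changed. Depth is unknown, so no counting error can be given for low values such as those of Zbtb16 in regular medium.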

Other observations

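Genes that glucocorticoids are known to repress, a list of 16 of which 9 were in the tables, mostly fell with DHT in regular medium and in ADM. In ADM 8 of the 9 fell and 1 rose (median log2 difference -1.68), and with DHT in regular medium 6 fell and 2 rose (median -0.73). Over all genes tested, 33.3% fell and 28.3% rose in ADM, and 14.1% fell and 12.7% rose with DHT. The collagenase gene Mmp13 read 126, 111 and 128 FPKM in control, 7.16, 9.23 and 8.87 in DHT, 11.6, 14.2 and 12.4 in ADM, and 14.0, 12.9 and 14.6 in ADM+DHT. It fell by 3.71 with DHT (± 0.095, limma, adjusted p = 1.72e-06) and by 3.16 in ADM (± 0.083, adjusted p = 1.10e-07), while DHT in adipogenic medium gave 0.11 ± 0.081 (adjusted p = 0.323). The stromelysin gene Mmp3 fell by 1.59 with DHT and 2.02 in ADM, the cyclooxygenase gene Ptgs2 by 0.73 and 2.61, and the chemokine gene Ccl2 by 0.50 and 2.60. Mmp3, with means of 0.699 FPKM in DHT and 0.255 in ADM, entered both comparisons only through control. So did Ptgs2 and the chemokine gene Cxcl1 for ADM, where their means were 0.466 and 0.947. The counts and medians above include these genes and were not taken without them. The gelatinase gene Mmp9 rose by 0.19 ± 0.057 with DHT in regular medium (adjusted p = 0.0470) and fell by 1.09 with DHT in adipogenic medium (± 0.109, adjusted p = 0.000299). Its ADM+DHT mean was 0.280 FPKM, so Mmp9 entered the latter comparison only through ADM.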
